A study of Mus musculus with 8 samples.

Results

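Accessible chromatin was examined at 10 imprinted genes: Dlk1, Meg3, H19, Cdkn1c, Plagl1, Nnat, Gnas, Peg3, Mest and Grb10. For each gene the peaks over its body and within 25 kb of either end were taken from 2 deposited peak lists, by position alone. All 10 genes were found among the 49943 genes of the GRCm38.p6 annotation on chromosomes 1 to 19, X and Y. Their windows, on 6 chromosomes, held 56 of the 100099 peaks of the empty vector list and 86 of the 128538 peaks of the Klf4 list. The cells were MIN6, a mouse insulinoma line of the beta cell type, labelled wild type. They had been transfected for 48 hours with pcDNA 3 without an insert or with pGloMyc-Klf4, a plasmid that expresses the zinc finger factor Klf4, and 4 libraries were made for each plasmid. ATAC-seq, in which a transposase tags open DNA, was used to find accessible regions. Each list merges the 4 libraries of its plasmid, which leaves 1 value for each group, no spread between replicates and no test of any difference given here. The plasmids differ in name beyond the Klf4 insert, and an effect of the backbone cannot be told apart from that of Klf4.

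Imprinted genes are expressed from 1 parental allele, which is chosen by DNA methylation set in the germ line at control regions and kept on that allele in the embryo. Many of them act on growth: paternally expressed genes tend to promote it and maternally expressed genes tend to restrain it. In the beta cell, several bear on proliferation and on insulin handling. The peak lists come from whole cell populations, and neither the parental alleles nor the number of cells with an open site can be told apart in them.

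As facts of the whole series, the Klf4 list covered 84.2 Mb, which is 18.2 Mb more than the empty vector list. A peak is called matched here when a peak of the other list overlaps it by at least 1 bp, gained when it stands in the Klf4 list alone, and lost when it stands in the empty vector list alone. These words describe the lists and not the height of the signal. The strongest peak of the Klf4 list lay in Klf4 itself, at chr4:55529721-55530988, with a −log10 q of 17133.7. Reads of the transfected Klf4 insert cannot be told apart there from those of the cells' own gene. The peaks in Klf4 with the empty vector ranked 19941 and 39526 in their list. All 8 beta cell markers examined, among them Ins1, Ins2 and Pdx1, had a peak within 1 kb of a gene end with the empty vector, and 7 of 8 did with Klf4, where Slc2a2 had none. Of 8 markers of other cells, 3 did with the empty vector (Gcg, Ppy and Col1a1) and 4 with Klf4 (these and Krt19). Sst, Cpa1, Ptprc and Pecam1 had none in either list.

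The starts of these genes are shown first. Among the starts examined, the lists differ at 1 Mest start and agree at all others. RefSeq (GRCm38.p6) gave 15 promoter windows for 8 of the genes, each reaching from 250 bases before a transcription start to 50 bases after it. H19 and Cdkn1c had no entry in the set of promoter windows used here, although the gene annotation holds both. A peak covered 8 of the 15 windows in both lists, where 45.3% of all 32851 promoter windows were covered in both. A further 1 of 15 was covered in the Klf4 list alone (7.08% of all windows), none in the empty vector list alone (1.22% of all) and 6 in neither. The 250 bases before the start are printed 5′ to 3′ for 5 of them, which are the pair of alternative Mest starts, a start open in both lists (Plagl1), a start under the widest peak of the set (Peg3) and a CpG-rich start with no peak (Grb10). Capitals mark TGCCGC, the hexamer bound by the imprint-keeping factor ZFP57 when methylated, and GGGNGTGG, a KLF-type motif, on either strand.
Mest, upstream start, chr6:30733256-30733505, plus strand: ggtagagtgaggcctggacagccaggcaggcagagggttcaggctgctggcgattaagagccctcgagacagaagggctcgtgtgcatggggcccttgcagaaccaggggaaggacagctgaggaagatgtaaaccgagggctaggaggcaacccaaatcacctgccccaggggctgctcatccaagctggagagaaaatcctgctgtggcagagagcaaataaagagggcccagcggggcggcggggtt
Mest, downstream start, chr6:30737800-30738049, plus strand: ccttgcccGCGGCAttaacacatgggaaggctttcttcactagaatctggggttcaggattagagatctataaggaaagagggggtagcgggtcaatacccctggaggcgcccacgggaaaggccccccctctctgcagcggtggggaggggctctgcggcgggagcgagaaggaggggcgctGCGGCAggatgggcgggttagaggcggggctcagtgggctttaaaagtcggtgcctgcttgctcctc
Plagl1, chr10:13090582-13090831, plus strand: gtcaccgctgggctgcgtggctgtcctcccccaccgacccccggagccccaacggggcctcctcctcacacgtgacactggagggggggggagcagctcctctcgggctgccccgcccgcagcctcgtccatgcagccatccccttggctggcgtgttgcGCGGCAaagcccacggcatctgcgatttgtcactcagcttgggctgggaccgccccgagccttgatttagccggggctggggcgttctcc
Peg3, chr7:6730420-6730669, minus strand: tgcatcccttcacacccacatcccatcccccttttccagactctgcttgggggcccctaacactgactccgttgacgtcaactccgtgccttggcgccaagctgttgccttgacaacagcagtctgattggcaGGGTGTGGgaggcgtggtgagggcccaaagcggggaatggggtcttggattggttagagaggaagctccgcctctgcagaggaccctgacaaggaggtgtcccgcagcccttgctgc
Grb10, chr11:12037421-12037670, minus strand: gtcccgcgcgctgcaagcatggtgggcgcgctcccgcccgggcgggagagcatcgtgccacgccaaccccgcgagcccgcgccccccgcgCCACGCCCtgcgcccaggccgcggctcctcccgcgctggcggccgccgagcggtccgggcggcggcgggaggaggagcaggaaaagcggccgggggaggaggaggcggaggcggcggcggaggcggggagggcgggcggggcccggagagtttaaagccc

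In these bases TGCCGC was found at 4 of the 15 member starts (1 of Meg3, 1 of Plagl1 and 2 of Mest whose bases overlap) and at 8.68% of the 32851 starts of the annotation. GGGNGTGG was found at 6 of 15 and at 15.9% of all. Neither GCCATNTT, the YY1 core, nor the CTCF core was found at a member start; they were at 3.91% and 0.0335% of all. The only overlaps between motif matches were 2 pairs of GGGNGTGG matches, in separate G-rich stretches of the downstream Meg3 start. The Grb10 start shown has 40 CpG and 81.2% G or C in 250 bases, and the upstream Mest start has 7 CpG and 60.8%. The median was 16 CpG and 60.8% among starts with a peak in both lists, and 2 CpG and 45.6% among those with a peak in neither. By its bases the Grb10 start was thus above the median of the covered starts, although no peak lay on it.

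Over all 10 genes, 42 of the 86 Klf4 peaks were gained (48.8%, 95% Wilson interval 38.6 to 59.2%), and 36.7% of all Klf4 peaks were. Such intervals hold counting error alone, and peaks side by side may depend on each other. Of the 56 empty vector peaks, 12 were lost (21.4%, interval 12.7 to 33.8%), and 18.8% of all empty vector peaks were. The lost share was close to that of the whole list. The gained share was above it, but 11 of the 42 gained peaks lay at H19, and without the H19 window the share was 31 of 73 (42.5%, interval 31.8 to 53.9%). With the 20000 peaks of each list that have the highest −log10 p the order of the 2 shares was the opposite, with 1 of 9 Klf4 peaks gained (11.1%) and 4 of 12 empty vector peaks lost (33.3%), where 12.7% of all Klf4 peaks and 12.7% of all empty vector peaks of these shortened lists were unmatched. Inside gene bodies 11 of 32 Klf4 peaks were gained (34.4%), and in the flanks 31 of 54 (57.4%); over all genes, with a peak counted once for each gene, 34.7% of body peaks and 38% of flank peaks were. The other 44 peaks of each list formed 44 pairs, 1 peak to 1 peak.

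**Figure D1:**
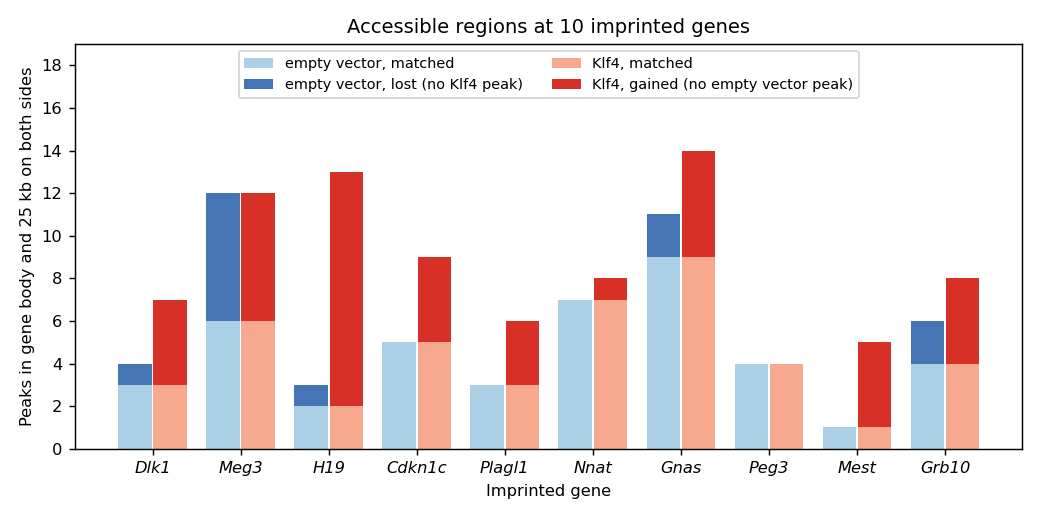
Number of peaks in each gene's window of body and 25 kb flanks (vertical axis), for the empty vector list (blue) and the Klf4 list (red), with matched peaks in pale and unmatched peaks in dark colours. H19 has the most gained peaks (11), Meg3 the most lost peaks (6), and Peg3 has neither.

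Coverage, the length of a window that lies under peaks, came to 58118 bp in the Klf4 list and 37063 bp in the empty vector list over the 801122 bp of the 10 windows, a ratio of 1.57, where the whole lists had 1.28. On the log2 scale the summed ratio was 0.64, and with those 20000 peaks of each list it turned to −0.12. For each gene it was compared as log2 of (Klf4 bp + 500)/(empty vector bp + 500). The value was above 0 for 9 genes and below 0 for 1 (Peg3), and 72.9% of all genes with a peak in their window were above 0 and 27% below. Past 1.5-fold, 3 genes were higher with Klf4 (H19, Cdkn1c and Mest) and 0 lower. Among the 41442 annotated genes with a peak in their window 25.6% were higher by that fold and 3.33% lower, so the number of genes past the fold is near the background. The median over the members was 0.30 and over all these genes 0.24. The ratio was largest at these 3 genes. H19 had a log2 ratio of 2.02, a value reached by 1.23% of genes. Cdkn1c had 1.97 (1.38% of genes) and Mest had 1.44 (3.91% of genes). With 10 kb on both sides these 3 ratios were 1.23, 1.11 and 2.40, and with 50 kb they were 1.53, 1.84 and 0.73. Windows of neighbouring genes overlap, and these percentages describe the 2 lists only. With those 20000 peaks of each list, none of the 3 was higher with Klf4: H19 and Mest had no peak left in either list, and Cdkn1c was lower by over 1.5-fold (a log2 ratio of −1.03). In all, 1 gene was then higher by that fold and 3 lower, where 9.24% of the 27142 genes that still had a peak were higher and 6.99% lower.

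**Figure D2:**
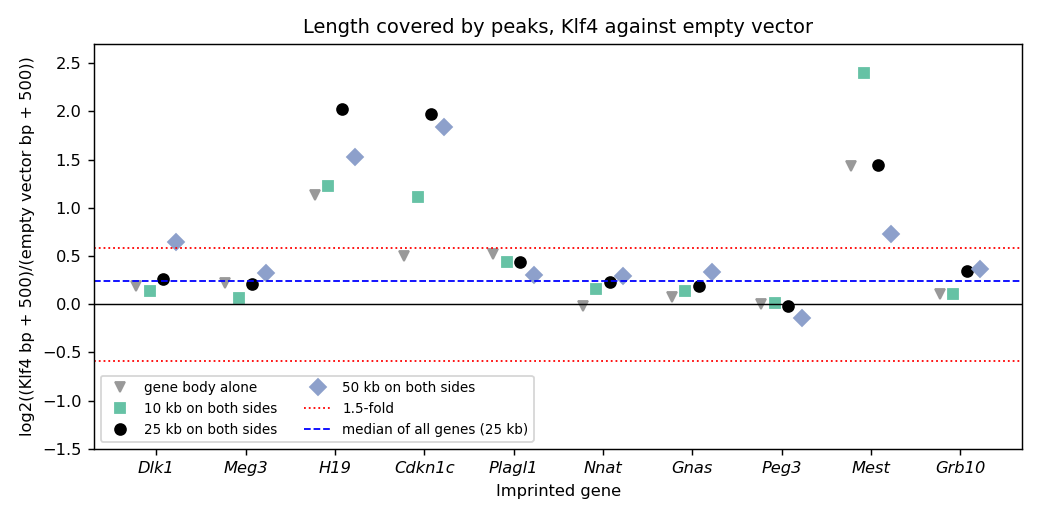
Coverage ratio on the log2 scale (vertical axis) for each imprinted gene, with windows of 4 sizes. Red dotted lines mark 1.5-fold, and the blue dashed line is the median of all genes (0.24); H19 and Mest stay above 1.5-fold with each window and Cdkn1c does with all but the gene body alone (0.50).

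H19 is a maternally expressed long noncoding RNA that shares its control region with Igf2, the gene of a fetal growth factor. Its window held 3 empty vector peaks, none of them on the gene body, which covered 1520 bp. It held 13 Klf4 peaks, which covered 7721 bp. The matched peaks lay 2.02 and 3.47 kb beyond the high-coordinate end of the gene, at chr7:142580166-142580826 (661 bp) and chr7:142581618-142582164 (547 bp) with the empty vector. They were narrower with Klf4, 557 and 383 bp, within the same places. They ranked in the strongest 33.6% and 27.3% of the empty vector list by −log10 q, and in the strongest 47.3% and 45.2% of the Klf4 list. Their fold enrichment over local background was 5.13 and 5.73 with the empty vector and 3.03 and 3.42 with Klf4. Ranks, here and for the other genes, place a peak within its own list. The lists differ in length, so a difference in rank alone does not measure a change in strength between them.

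The 11 gained peaks at H19 covered 6781 bp. On the low-coordinate side 8 of them lay between 1.31 and 22.1 kb from the gene. The widest was chr7:142572797-142574217 (1421 bp, −log10 q 6.35), followed by chr7:142561045-142562253 (1209 bp, 5.34). The others with a −log10 q of at least 5 were chr7:142552639-142553381 (7.93), inside the noncoding gene Nctc1, chr7:142569213-142569748 (5.75) and chr7:142591791-142592298 (6.27), inside Gm33148. A gained peak of −log10 q 3.58 overlapped the Nctc1 promoter window. The strongest gained peak, chr7:142576565-142577162 (598 bp, −log10 q 8.76, fold enrichment 2.56 over local background), lay in the body of H19. All 11 were of moderate or low strength in their list, and the best of them ranked 57794 of 128538. The lost peak, chr7:142596180-142596491, had a −log10 q of 1.94.

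The gained peak in the H19 body covers the whole hairpin of Mir675, chr7:142577064-142577147 on the minus strand, a microRNA that is cut from the H19 transcript. The mature forms are printed as RefSeq gives them, with the seed (bases 2 to 8) in capitals, beside miR-136-5p of the Meg3 window, whose hairpin lay under a matched peak.
miR-675-5p: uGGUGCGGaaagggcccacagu
miR-675-3p: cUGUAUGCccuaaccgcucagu
miR-136-5p: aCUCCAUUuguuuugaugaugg
No 2 of these share a seed. The windows of the 10 genes hold 20 microRNA hairpins in the RefSeq table, 16 of them at Meg3. Of the 20, 3 lay under an empty vector peak (Mir432, Mir3071 and Mir136) and 4 under a Klf4 peak, the same 3 and Mir675. Of all 1005 hairpins of the table on chromosomes 1 to 19, X and Y, 15.6% lay under an empty vector peak and 20.9% under a Klf4 peak.

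Cdkn1c encodes p57, an inhibitor of cyclin-dependent kinases that is expressed from the maternal allele and holds cells out of the cycle. It lies 882.8 kb from H19 on chromosome 7. Its window held 5 empty vector peaks (1982 bp) and 9 Klf4 peaks (9218 bp), with 5 matched pairs, 4 gained peaks and none lost. Over all 10 windows 7 of the 44 matched pairs were wider with Klf4 by 1.5-fold or more and 2 narrower, where 13.8% of all 79834 such pairs of the lists were wider and 12.3% narrower. Of the 7 wider pairs, 4 were among the 5 pairs at Cdkn1c, and Meg3, Nnat and Gnas had 1 each. The peak on the gene itself, at its high-coordinate end, was 521 bp wide in the empty vector list (chr7:143460747-143461267) and 1177 bp wide in the Klf4 list (chr7:143460411-143461587). The next ones, over the noncoding gene Gm33663, were 191 and 1248 bp, then 360 and 960 bp. The pair in Slc22a18, an imprinted transporter gene, was 542 and 1341 bp wide. The remaining pair was 368 and 304 bp.

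The peak on the Cdkn1c gene was in the strongest 16.4% of the empty vector list and in the strongest 30.4% of the Klf4 list. With the empty vector value first, the pair over Gm33663 that was 191 and 1248 bp wide was in the strongest 82.1% and 32.7%, and the next in the strongest 41.5% and 59.8%. The Slc22a18 pair was in the strongest 33.6% and 35.0%, and the remaining pair in the strongest 41.8% and 69.9%. Fold enrichment, in the same order of pairs, was 6.26, 2.14, 4.00, 5.65 and 4.60 with the empty vector. With Klf4 it was 3.10, 2.98, 2.55, 2.89 and 2.68. The gained peaks were chr7:143445747-143446582 (836 bp, −log10 q 15.5), chr7:143475013-143476389 in Slc22a18 (1377 bp, 13.5), chr7:143437796-143439466 (1671 bp, 8.65) and chr7:143436482-143436785 (304 bp, 6.91). These 4 covered 4188 bp. Together with H19, Cdkn1c thus held 10 of the 21 gained peaks with a −log10 q of at least 5. Of the rest, Mest and Grb10 held 3 each, Dlk1 and Meg3 2 each and Gnas 1. Among all Klf4 peaks of that strength 26.8% were gained.

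**Figure D3:**
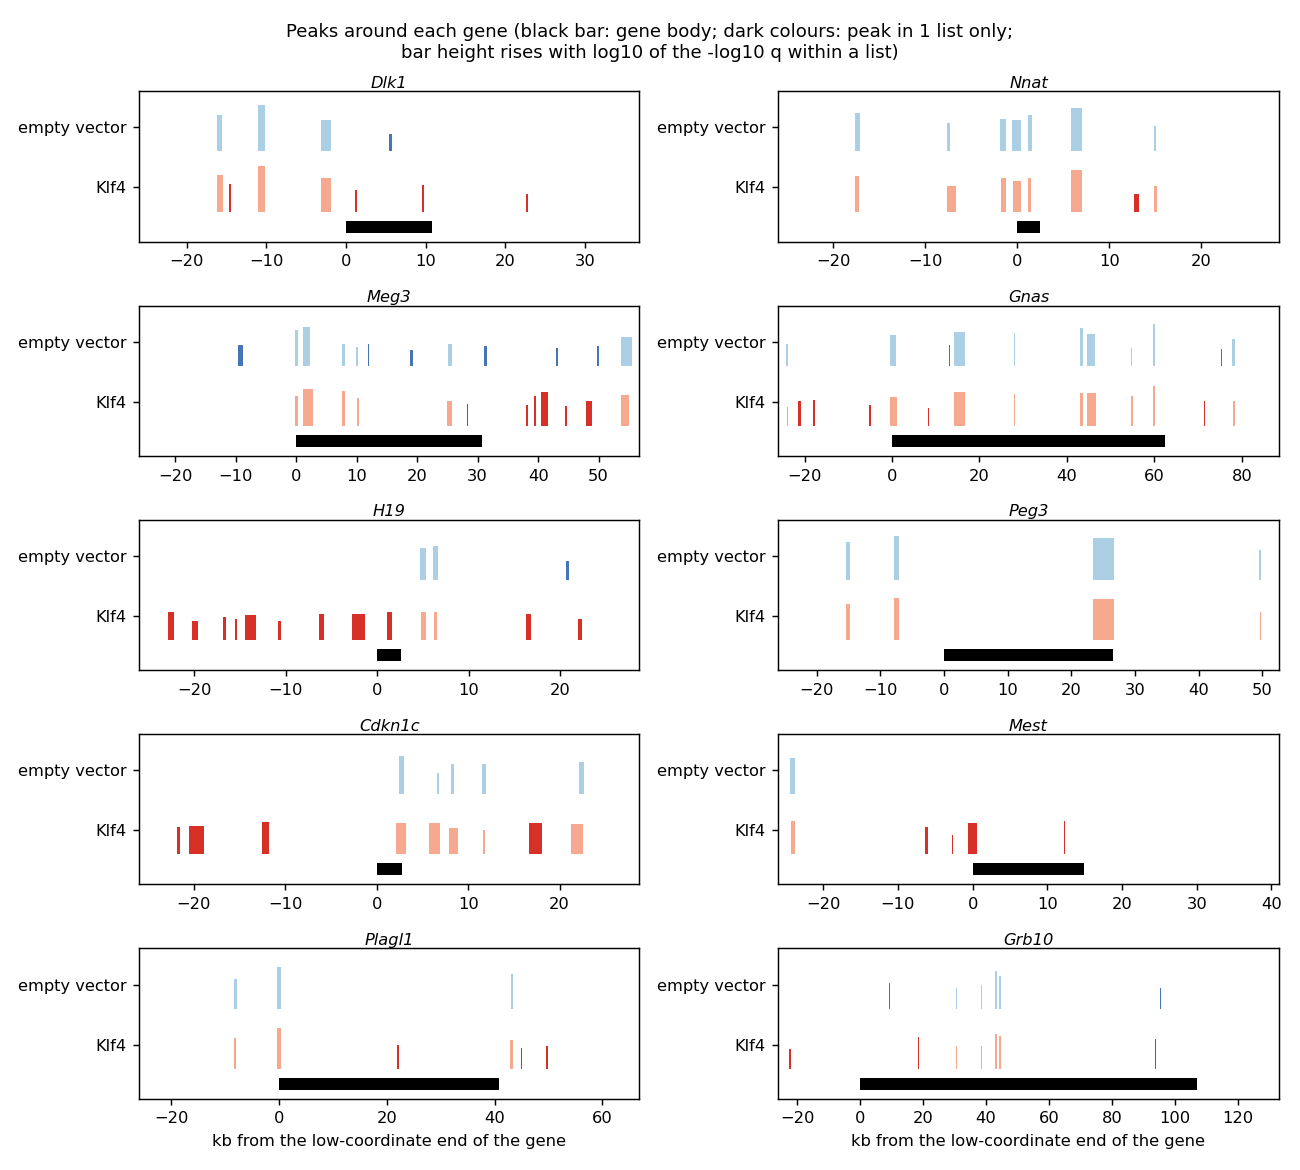
Peaks around each of the 10 genes, by distance in kb from the low-coordinate end of the gene (horizontal axis), with the empty vector list above the Klf4 list and the gene body as a black bar. Dark bars are peaks in 1 list only; they line the low-coordinate side of H19, both sides of Cdkn1c and the start of Mest, and are missing at Peg3.

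The higher coverage at H19 and Cdkn1c was not limited to their windows. From the window edge out to 250 kb from H19, coverage was 19.4 kb with the empty vector and 44.2 kb with Klf4 (a ratio of 2.27), and around Cdkn1c it was 15.3 and 29.7 kb (1.95). Over 43 bins of 100 kb from 1500 kb below H19 to 2800 kb above it, coverage was higher with Klf4 in 41 bins and lower in 2, where 62.1% of all 20827 bins of that size with a peak were higher and 37.7% lower. These 43 bins came to a total of 381.4 kb against 206.5 kb (1.85). In bins of 1 Mb, the ratio was 2.03 for the bin of H19 and 1.89 for that of Cdkn1c. Of the 2107 such bins with at least 10 empty vector peaks, 1.57% and 2.75% had a ratio as high, and the median was 1.15. The bin of Dlk1 and Meg3 was close to these, with 32.0 kb and 57.8 kb, a ratio of 1.81 (3.75% of bins) and 61 of its 100 Klf4 peaks gained. The bins of the other 6 genes had ratios from 1.11 (Peg3) to 1.44 (Nnat).

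**Figure D4:**
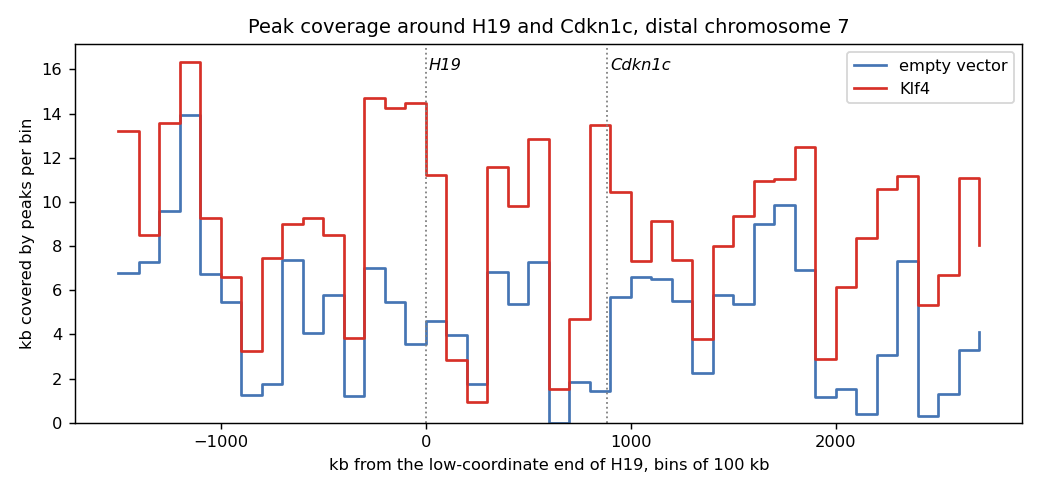
Kilobases covered by peaks in bins of 100 kb (vertical axis) against distance from the low-coordinate end of H19, for the empty vector (blue) and Klf4 (red) lists. The Klf4 line is the higher one in 41 of 43 bins, and dotted lines mark H19 and Cdkn1c.

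Mest, also called Peg1, is paternally expressed and encodes a protein of the hydrolase fold family; its downstream start lies in a region methylated on the maternal allele. Its window held 1 peak with the empty vector (648 bp), which lay 23.7 kb away in Cep41. With Klf4 it held 5 peaks covering 2619 bp. The matched Cep41 peak was 478 bp wide there, and the other 4 were gained. The widest, chr6:30732856-30734134 (1279 bp, −log10 q 13.5, strongest 31.3% of the list), covered all 300 bases of the upstream Mest promoter window. No peak of either list lay on the downstream start printed above. The nearest one with Klf4 was 3.92 kb away and the nearest with the empty vector 28.3 kb away. A narrow gained peak inside the gene, chr6:30745687-30745907 (221 bp), had the highest −log10 q of the 4 (18.2), and the remaining ones had 7.69 and 2.00. Beyond the window, out to 250 kb from Mest, coverage was 11.8 kb with the empty vector and 11.4 kb with Klf4 (0.968).

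Dlk1 and Meg3 lie in an imprinted domain of chromosome 12. Dlk1 is a paternally expressed membrane protein of the Notch ligand type, and Meg3 is a maternally expressed noncoding RNA followed by a cluster of microRNA genes. At Dlk1 the lists had 4 peaks (3092 bp) and 7 peaks (3805 bp). The 3 matched peaks all lay before the gene, and the strongest of them, chr12:109441470-109442366, was in the top 2.49% of the empty vector list and, 887 bp wide, in the top 1.73% of the Klf4 list. No peak lay on the Dlk1 start in either list. The gained peaks there were 174 to 290 bp wide, 2 of the 4 with a −log10 q of at least 5 (7.01 and 6.53), and the lost peak, in the gene body, had 1.41.

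At Meg3 both lists had 12 peaks, of which 6 were matched, 6 lost and 6 gained, so equal numbers stood for different places in part. Klf4 peaks covered 8424 bp here and empty vector peaks 7238 bp. The peak on the first Meg3 start was matched (472 and 516 bp), as was the next, chr12:109542129-109543208, of 1080 bp, which was 1743 bp wide in the Klf4 list. The matched peak farthest from the gene, 1780 and 1346 bp wide, covered the hairpins of Mir136, Mir3071 and Mir432. The 6 lost peaks had −log10 q values from 1.20 to 3.01. Of the gained peaks 5 lay past the gene, inside Rtl1, the gene of a retrotransposon-like protein, and the strongest gained peak of all 10 windows was among them: chr12:109581407-109582662, 1256 bp, −log10 q 21.0. The next was chr12:109580354-109580640 (10.9). Meg3 held 6 of the 12 lost peaks, and without its window the lost share of the set was 6 of 44 (13.6%).

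Plagl1, a paternally expressed zinc finger factor, had a peak on its start in both lists, chr10:13090353-13091263 (911 bp, top 9.24%) in the empty vector list and 918 bp wide in the Klf4 list (top 7.59%). All 3 empty vector peaks were matched, and the 3 gained ones had −log10 q values of 2.40 to 4.17. Coverage was 1911 and 2774 bp. Nnat encodes neuronatin, a small membrane protein that aids preproinsulin processing in beta cells. It lies within an intron of Blcap. Its 7 empty vector peaks were all matched, among them the peaks on the start of Nnat (918 and 940 bp) and on the start of Blcap (1121 and 1113 bp, top 7.32% and 5.88% of their lists). A single gained peak of −log10 q 1.55 was the only difference in number, and coverage was 4337 and 5187 bp.

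Gnas encodes the stimulatory G protein alpha subunit that couples hormone receptors to cyclic AMP, and its locus has several imprinted first exons. It had 11 empty vector peaks (8935 bp) and 14 Klf4 peaks (10294 bp), with 9 matched, 2 lost and 5 gained. All 4 RefSeq promoter windows of Gnas were covered whole in both lists. The widest pair, chr2:174298411-174300948 with the empty vector, was 2538 and 2479 bp wide. The strongest Gnas peak was narrow and lay at chr2:174343975-174344516 inside the gene (542 and 420 bp, top 8.99% and 7.78%). Just 1 of the 5 gained peaks had a −log10 q of at least 5, chr2:174266259-174266808 (58.7% of the list was as strong or stronger), which ends before the hairpins of Mir296 and Mir298.

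Peg3, a paternally expressed zinc finger protein gene, differed least. Both lists had 4 peaks and all were matched. The widest peak of the 10 windows ran over the start that Peg3 shares with Usp29, at chr7:6727360-6730629 in the empty vector list (3270 bp), and was 3292 bp wide in the Klf4 list. The peak on the start of Zim1 was 805 and 810 bp wide. Coverage was 5038 and 4949 bp, a log2 ratio of −0.02, and 75.5% of genes had a ratio as high or higher. From the window edge to 250 kb the ratio was 0.957. Peg3 lies on chromosome 7 as H19 and Cdkn1c do, near the other end.

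Grb10 encodes an adaptor that restrains insulin and insulin-like growth factor receptor signalling. Its window of 156930 bp was the longest and among the emptiest, with 6 peaks (2362 bp, 1.51% of the window) and 8 peaks (3127 bp, 1.99%). Neither of its 2 RefSeq starts had a peak in either list. The nearest to the CpG-rich start printed above lay 11452 bp away with the empty vector and 12852 bp away with Klf4. The 4 matched peaks lay in the gene body, the strongest at chr11:11973278-11973831 (554 and 534 bp, top 16.9% and 19.8%). Of the gained ones, chr11:11948990-11949283 (−log10 q 15.1), chr11:12024229-12024568 (10.1) and chr11:11963694-11963880 (5.03) were in the body too. The lost peak chr11:11939603-11939888 (5.28) was the only lost peak of the 10 windows with a −log10 q of at least 5.

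By strength, gained peaks had a median −log10 q of 4.87 (1.38 to 21.0) and a median width of 352 bp, and matched Klf4 peaks 13.5 (1.82 to 133.0) and 598 bp. Lost peaks had a median −log10 q of 2.13 (1.20 to 5.28) and a median width of 299 bp, and matched empty vector peaks 16.2 (1.53 to 157.8) and 546 bp. At a −log10 q of at least 5, 21 of 59 Klf4 peaks had no empty vector peak (35.6%, where 26.8% of all such Klf4 peaks had none), and 1 of 36 empty vector peaks had no Klf4 peak (2.78%, against 5.09%). None of the gained peaks reached the strength of the strongest matched ones.

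**Figure D5:**
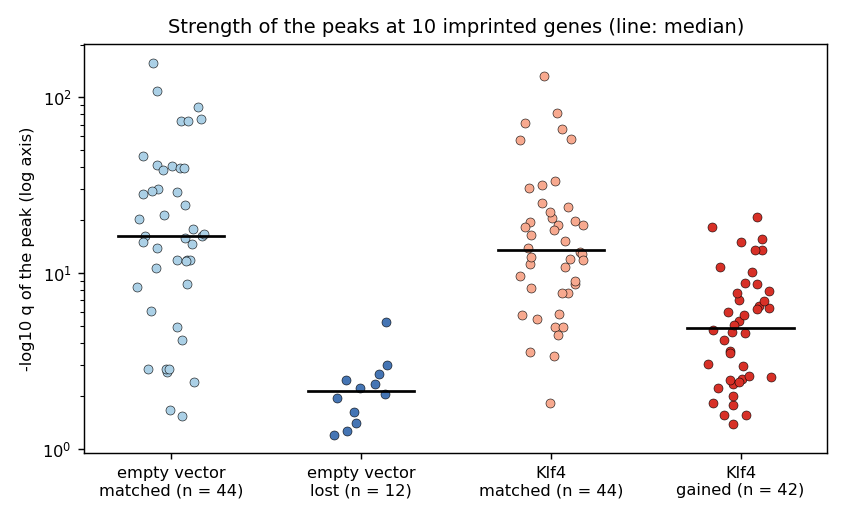
The −log10 q of each peak in the 10 windows (vertical axis, log scale) for matched and unmatched peaks of each list, with the median as a line. Lost peaks stay at or below 5.28 and gained peaks at or below 21.0, while matched peaks reach 157.8 and 133.0.

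Other imprinted genes were counted in the same way. Of 45 listed, 44 were found and 43 had a peak in their window, and 10 of the 44 share sequence with a window of the 10 genes. Among the 33 with a peak and no shared sequence, 11 were higher with Klf4 by 1.5-fold or more (33.3%) and 2 were lower (6.06%). Among all genes 25.6% were higher and 3.33% lower. The median was 0.25, where all genes had 0.24. Of the 28 of them outside distal chromosome 7, 7 were higher (25%). Of 8 listed genes between 142 and 144 Mb of chromosome 7, with H19 and Cdkn1c, 7 were past the fold. Their windows overlap in part, and of the 5 that share no sequence with the windows of H19 and Cdkn1c 4 were past it. Of the 35 genes elsewhere 8 were (22.9%, where 25.6% of all genes were). The highest ratio was at Dio3, the deiodinase gene at the far end of the Dlk1 domain, with 1 peak (309 bp) and 13 peaks (8914 bp). Peg10 and Sgce, neighbours that share their peaks, were next, with 2 Klf4 peaks (1433 bp) and no empty vector peak. The lowest were Klf14, itself a KLF family gene, with 2 peaks (1036 bp) and none, and Asb4 with 5 peaks in both lists and 4436 against 2713 bp. Igf2, named after its values were seen because it is paired with H19, had 3 peaks (4406 bp) and 13 (9564 bp).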

How the data were processed

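The study's 8 ATAC-seq libraries of MIN6 cells, 4 for each plasmid by their titles, are represented by 2 broadPeak lists, each merged over a group per the file names. Bowtie2, MACS2, DiffBind and build mm10 are named in the submitters' processing notes; versions, options, duplicate handling and transposase shift are not given in the sources used here. The authors deposited for each peak a fold enrichment over local background (a ratio), a −log10 p, a −log10 q-value, and a score that is 10 times −log10 q. These are the authors' values and were used for ranks and filters inside each list. Fold enrichments of the matched pairs at H19 and Cdkn1c are printed side by side, and their difference was not tested. Depth is unknown. More weak peaks pass a q-value in a deeper or cleaner library, and the part of this in the gained peaks was not tested.

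Peak starts were made 1-based, and 165 and 188 scaffold peaks were left out. RefSeq GRCm38.p6, the mm10 assembly, gave genes, promoters and microRNAs. Near ends of protein-coding genes lay 14.7% and 13.9% of peaks, and 6.17% and 6.57% after moving the lists by 100 kb. Shares have 95% Wilson intervals. The members and gene lists were chosen with earlier results of these data known. All 10 members are named, with their strongest peaks, those nearest the start, and unmatched peaks of −log10 q of at least 5; other imprinted genes are named by the 2 highest and 2 lowest ratios or as neighbours. Alternatives changed the window, the peaks kept, the overlap and the added length. Tested on simulated data, 2000 of 2000 placed and 2000 of 2000 removed peaks were found, and covered lengths at 200 genes equalled a direct count. The tools were matplotlib 3.10.9, scipy 1.17.1, pandas 2.3.3, numpy 2.4.6 and Python 3.11.15.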

Additional observations from a re-analysis of the deposited data

How the results depend on the processing

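No paired analysis was possible because the lists pool the libraries of a plasmid, and neither a replicate block nor a left-out replicate could be run. The summed coverage log2 ratio was 0.64 as reported, 0.41 with 10 kb on both sides, 0.26 over gene bodies alone, 0.50 without the H19 window and 0.47 without the Cdkn1c window. It was 0.51 with the top 100000 peaks of each list and turned to −0.12 with the top 20000. With the top 20000 the gained share was 11.1% (1 of 9 peaks) and the lost share 33.3% (4 of 12), where both were 12.7% over all peaks. By 1.5-fold, 1 gene was then higher (Dlk1, 0.62) and 3 lower (Cdkn1c, Gnas and Grb10). Of all genes that still had a peak, 9.24% were higher and 6.99% lower. H19 and Mest went from 2.02 and 1.44 to 0, Gnas from 0.19 to −0.92, Grb10 from 0.34 to −1.08, Nnat from 0.23 to −0.41 and Cdkn1c from 1.97 to −1.03, since 1 empty vector peak of 521 bp and no Klf4 peak of the Cdkn1c window is among those 20000. The gained share was 34.4% over gene bodies and 35.6% for peaks with a −log10 q of at least 5 set against the whole other list, where the lost share was 2.78%; it was 8.33% with that limit on both lists. Here a share moves on leaving its interval, the summed ratio by 0.1 or more, a count by over 1.5 times and the ratio of 1 gene by 0.25 or more. By these limits 12 of 48 values for the set moved, 1 turned and 35 did not; of 80 values for single genes 53 did not move. Of these 80, 12 had the opposite sign to the reported value and 2 were 0. Peg3, −0.02 as reported, was 0.01 with the top 20000. Plagl1 went from 0.44 to −0.46 with peaks of at least 500 bp, and the other 6 lay between −0.07 and 0.01. H19 and Mest were past 1.5-fold in 7 of 8 alternatives and Cdkn1c in 6 of 8. Other genes passed it in some alternatives. Dlk1 did with 50 kb on both sides (0.64) and with the top 20000 peaks. Meg3 did with a −log10 q of at least 5 in both lists (0.75) and with peaks of at least 500 bp (0.67). The top 100000 peaks, the limit against the whole list and the left-out windows were chosen after seeing the data. Without a value per library, the depth and the spread between libraries cannot be set against any difference.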
